A study of Mus musculus with 12 samples.

Results

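The genes described here are 10 genes of the NF-κB pathway, grouped by role into 4 subunits of the transcription factor (Nfkb1, Nfkb2, Rela and Relb), 4 feedback inhibitors (Nfkbia, Tnfaip3, Tnip1 and Tnip3) and 2 outputs (Il6 and Vcam1). Their values were taken by name, as the entries of 2 expression tables that carry these symbols. The set itself was chosen with earlier results of these data known. The table of the mutant IDH2 experiment held all 10 among 43280 entries. The table of the 2-HG experiment held 9 among 23930 entries, and Nfkb1 was not analysed there. RNA-seq values of 12 libraries were used, 3 in each of 4 groups. All 4 groups were spontaneously immortalized fibroblasts (MEF cells) from C57BL/6 mouse embryos. 2MUT cells stably expressed human IDH2 with the cancer-associated R172S mutation and a 3×FLAG tag from a retroviral vector, as a puromycin-selected population, and Control cells carried the mock vector. The 2-HG(+) cells were given 300 μM of a membrane-permeant form of 2-HG for 24 h, listed among the study's reagents as octyl-(R)-2HG, an ester of the metabolite that mutant IDH2 makes. The 2-HG(-) cells are labelled as given the solvent DMSO, whereas the study's text calls them not treated. The comparisons ask how these genes differ in cells that carry the mutant enzyme and in cells given this form of its product. No library came from cells expressing wild-type IDH2, so effects of the mutation, of IDH2 expression as such and of selection cannot be told apart.

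NF-κB factors are dimers of Rel family proteins that are held in the cytoplasm by IκB proteins until a receptor signal leads to IκB breakdown. The freed dimers bind κB sites in DNA and switch on inflammatory and survival genes, among them genes for the pathway's own inhibitors, which end the response. In fibroblasts the pathway is known for cytokine, chemokine and adhesion gene expression after TNF, interleukin 1 or Toll-like receptor signals.

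Promoter sequences of 4 of the 5 genes that fell with 2-HG, all but Vcam1, are shown first, because κB sites are the feature through which NF-κB acts on its targets. The window of each RefSeq start on GRCm38.p6, from 250 bases before the start to 50 bases after it, was searched on both strands for the κB consensus, a pattern of 10 bases. Windows were matched for 7 of the 10 genes, all but Nfkb1, Relb and Vcam1, and 6 of these 7 held a match, against 2581 of 27025 genes with a window (9.55%) and 22 of 62 other NF-κB pathway genes (35.5%). The genes were picked for their roles in this pathway, inhibitors and outputs among them, so this share describes the set and is not a test. In each sequence the capitals mark the κB match, and the bases run from 250 before the start to the last base before it. They lie at chr12:55492648-55492897 (minus strand) for Nfkbia, chr11:54962941-54963190 (minus strand) for Tnip1, chr6:65590148-65590397 (plus strand) for Tnip3 and chr5:30012864-30013113 (plus strand) for Il6. The Tnip3 window belongs to a RefSeq start inside the GENCODE span of the gene, chr6:65525313-65634040, and not to the first base of that span.
Nfkbia: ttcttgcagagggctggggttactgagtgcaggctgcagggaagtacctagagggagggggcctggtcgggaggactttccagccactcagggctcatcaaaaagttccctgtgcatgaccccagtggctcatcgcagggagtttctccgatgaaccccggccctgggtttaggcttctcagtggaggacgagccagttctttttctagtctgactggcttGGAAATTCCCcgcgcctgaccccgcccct
Tnip1: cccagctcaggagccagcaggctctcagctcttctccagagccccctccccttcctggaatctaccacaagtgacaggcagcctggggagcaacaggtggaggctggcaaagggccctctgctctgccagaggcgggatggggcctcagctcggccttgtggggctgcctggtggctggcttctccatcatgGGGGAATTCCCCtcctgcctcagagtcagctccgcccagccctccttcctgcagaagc
Tnip3: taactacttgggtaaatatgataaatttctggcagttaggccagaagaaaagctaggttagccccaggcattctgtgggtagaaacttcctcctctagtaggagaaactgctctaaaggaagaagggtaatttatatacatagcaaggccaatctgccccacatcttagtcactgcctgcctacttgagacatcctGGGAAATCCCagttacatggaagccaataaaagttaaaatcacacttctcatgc
Il6: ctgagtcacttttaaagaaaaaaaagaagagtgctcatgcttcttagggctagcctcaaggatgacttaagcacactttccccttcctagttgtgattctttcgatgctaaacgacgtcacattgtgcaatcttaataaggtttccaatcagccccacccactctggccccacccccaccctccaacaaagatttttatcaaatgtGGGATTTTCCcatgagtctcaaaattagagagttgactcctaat

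The match lay 29 to 20 bases before the start in Nfkbia, 58 to 47 in Tnip1, 54 to 45 in Tnip3 and 44 to 35 in Il6. The Tnip1 match spans 12 bases because overlapping matches on both strands were merged. Shorter stretches are shown for Nfkb2, the subunit gene that fell in 2MUT cells (chr19:46304673-46304733, plus strand), and for Tnfaip3, which did not pass the test in either comparison (chr10:19015501-19015560, minus strand).
Nfkb2: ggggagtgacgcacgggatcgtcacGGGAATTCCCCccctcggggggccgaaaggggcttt
Tnfaip3: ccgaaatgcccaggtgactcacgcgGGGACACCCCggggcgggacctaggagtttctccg

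Nfkb2 had 4 distinct sites over 3 annotated starts, and Tnfaip3 had 2, both at 1 of its 2 starts. The Tnfaip3 site shown lies 125 to 116 bases before the start, and the other, GGAAATCCCC, lies 12 to 3 bases before it. The window of Rela held no match, which says only that these letters are not in that window. A match describes the sequence and does not show binding, and matches were found both in genes that fell and in Tnfaip3.

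**Figure D1:**
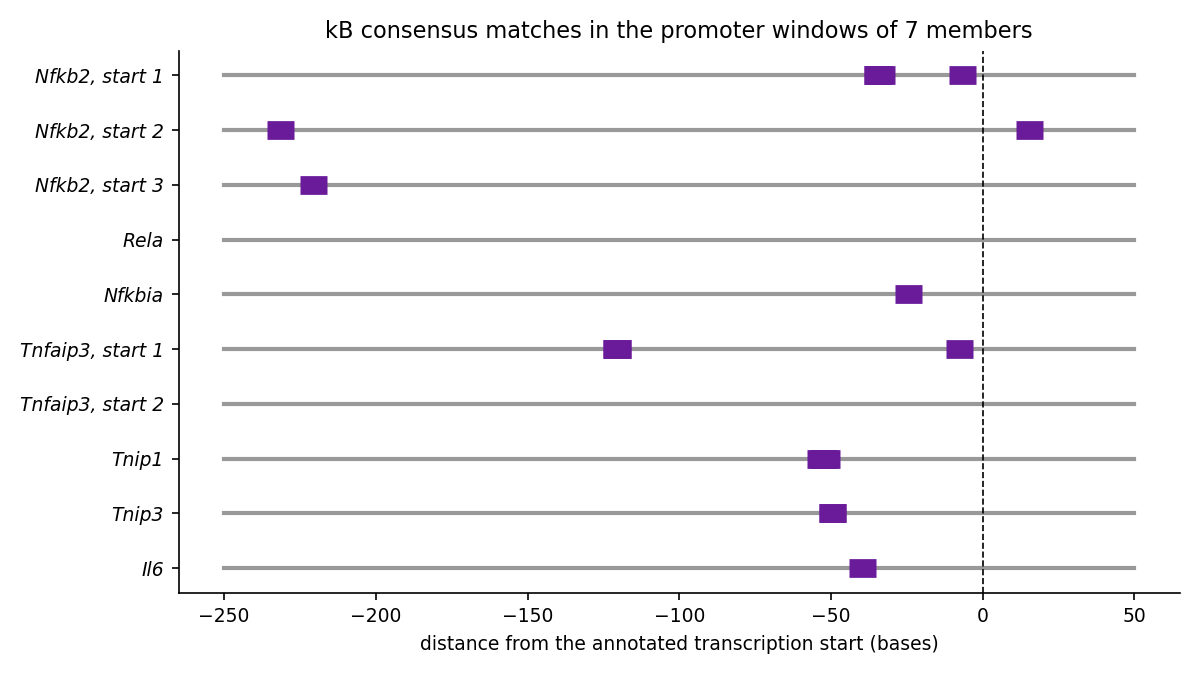
Matches to the κB consensus (bars) in the promoter windows of 7 NF-κB genes, one row for each annotated start, against the distance from the start in bases. Matches lie in 8 of the 10 windows, and each of Nfkb2, Nfkbia, Tnfaip3, Tnip1, Tnip3 and Il6 has at least 1 match within 58 bases before a start.

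The libraries of the mutant experiment held 6472439 to 7313602 reads on genes, and those of the 2-HG experiment 14959318 to 18363768. Values are RPM, reads on a gene per 1000000 reads on genes, and 3 reads, taken as the limit of detection, were worth 0.410 to 0.464 RPM and 0.163 to 0.201 RPM, respectively. These limits cover counting error only. Each gene is read through a short amplified target, so that levels are compared between groups and not between genes. Of 12 fibroblast markers, 12 were above the detection limit in every Control library and 11 in every library of each other group. Their summed level was 16015 to 18009 RPM in Control, 14656 to 15183 in 2MUT, 22191 to 23827 in 2-HG(-) and 15508 to 16532 in 2-HG(+). Summed levels of 7 endothelial and of 7 epithelial markers reached at most 3.09 and 1.90 RPM. The study's methods state that all experiments were done in triplicate. Nothing in the sources says that the 3 libraries of a group came from separate cultures, so p-values measure the spread between libraries, which may be technical.

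In 2MUT cells, Nfkb2, Tnip3 and Vcam1 fell and Nfkbia rose. With 2-HG, Nfkbia, Tnip1, Tnip3, Il6 and Vcam1 fell and none of the 9 genes tested rose, nor did any at an unadjusted p under 0.05 in limma or with edgeR or DESeq2 on recovered reads. Tests were done with limma on log2(RPM + 1) over all genes whose mean reached 1 RPM, and a gene was called when its Benjamini-Hochberg adjusted p was under 0.05. Of 8 genes tested in 2MUT, 1 rose and 3 fell, where 16.5% of all 11065 genes tested rose and 17.3% fell. Of 9 tested with 2-HG, 5 fell, where 16.7% of all 10384 genes tested fell and 16.1% rose. The median log2 fold change of the tested members was 0.06 in 2MUT and -0.55 with 2-HG, beside 0.01 and -0.02 over all genes tested.

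**Figure D2:**
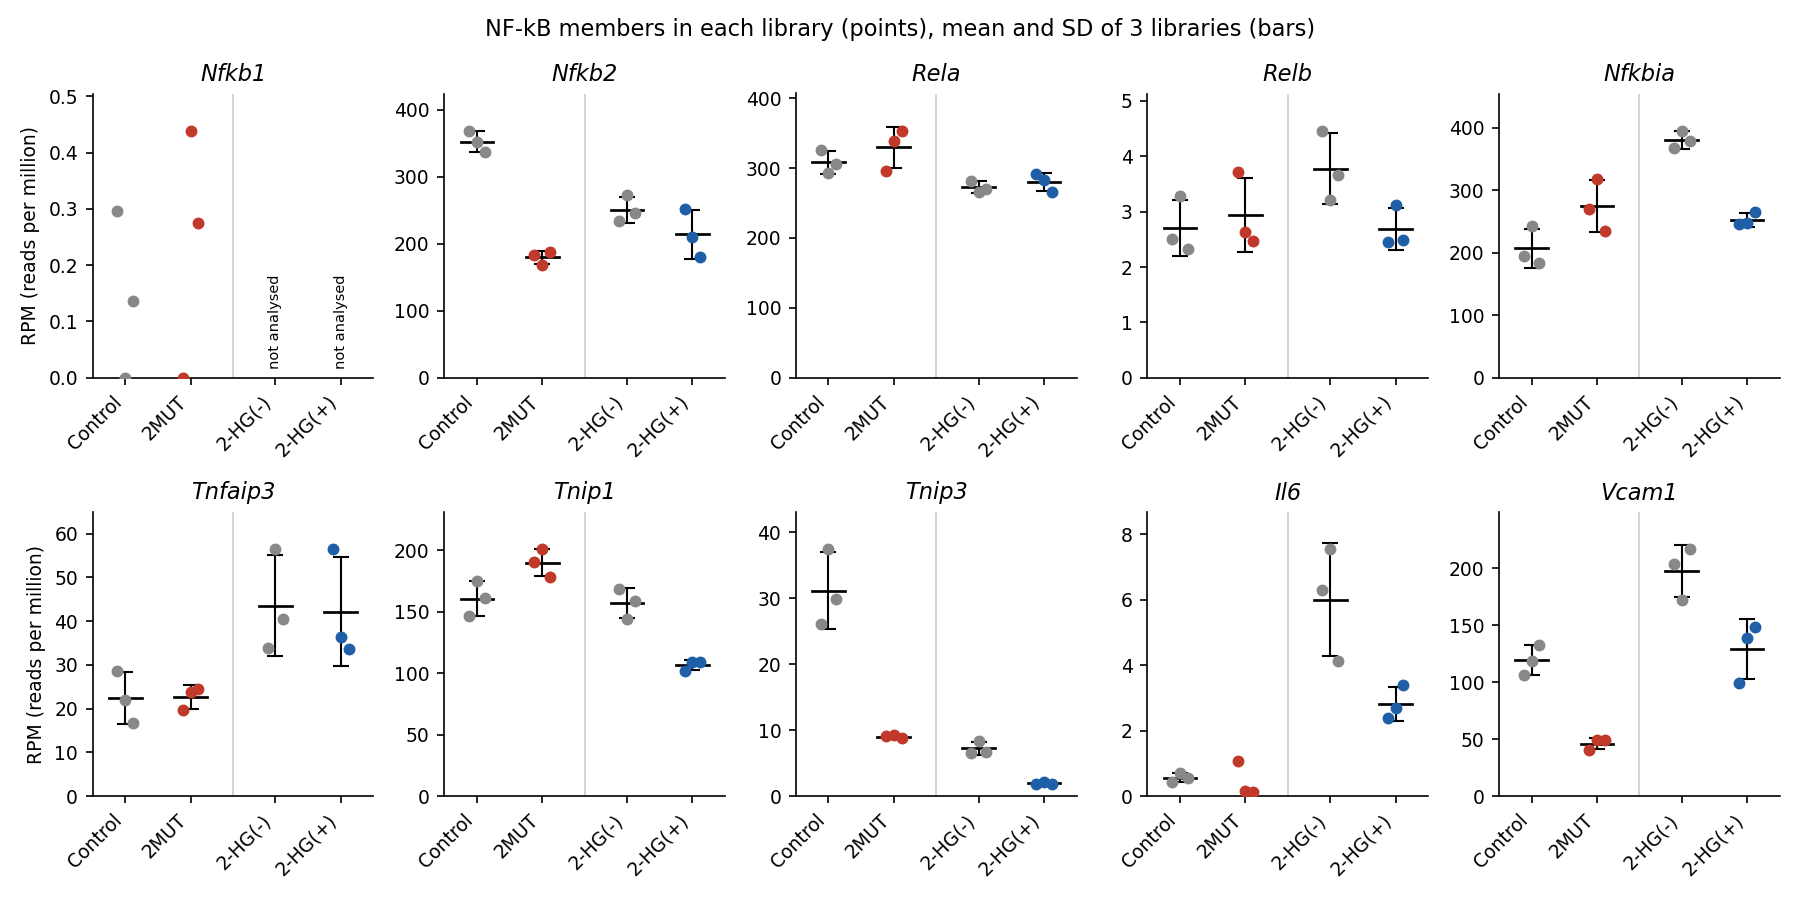
RPM of the 10 NF-κB genes in each library (points), with the mean and SD of 3 libraries (bars), for Control and 2MUT left of the grey line and 2-HG(-) and 2-HG(+) right of it. Each panel has its own linear axis, no bars are drawn where a library had fewer than 3 reads, and Tnip3 and Vcam1 are lower in every 2MUT and every 2-HG(+) library than in their controls.

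The subunits were described first. Nfkb2 encodes p100, the precursor of p52 in the noncanonical pathway, and lies at chr19:46304320-46312385 on the plus strand. Its level was 369, 351 and 337 RPM in Control and 183, 169 and 187 RPM in 2MUT. All 2MUT libraries were thus below all Control libraries. The log2 fold change was -0.97 (SE 0.09, 95% interval -1.17 to -0.77, limma adjusted p = 2.16e-05), which corresponds to a mean that fell by 49.1%. Nfkb2 overlaps Psd and a noncoding RNA gene on the opposite strand, and since the use of strand in counting is not given in the sources used here, reads of the shared stretch cannot be told apart. In the 2-HG experiment Nfkb2 was 234, 272 and 245 RPM in 2-HG(-) and 252, 210 and 180 RPM in 2-HG(+). These groups overlapped, and the log2 fold change of -0.24 (SE 0.13, 95% interval -0.53 to 0.05) did not pass the test (limma adjusted p = 0.192). Without 2-HG(+) library 1, the highest of its group, the value was -0.36 and passed (limma adjusted p = 0.0389), and without 2-HG(+) library 3, the lowest, it was -0.12 (limma adjusted p = 0.51).

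Rela encodes p65, the subunit that carries the main activation domain of canonical dimers, and lies at chr19:5637483-5648130. It was 326, 293 and 305 RPM in Control and 296, 338 and 354 RPM in 2MUT, with overlapping groups. In the other experiment it was 282, 266 and 270 RPM in 2-HG(-) and 291, 283 and 265 RPM in 2-HG(+), again overlapping. The log2 fold changes were 0.09 (SE 0.10, 95% interval -0.12 to 0.31, limma adjusted p = 0.493) and 0.04 (SE 0.09, 95% interval -0.16 to 0.23, limma adjusted p = 0.783). The intervals thus leave room for a change of at most 0.31 on the log2 scale in either comparison.

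Relb encodes the usual partner of p52 and lies at chr7:19606217-19629438. It was read at low depth, with 17 to 24 reads per library in the mutant experiment and 37 to 82 in the 2-HG experiment. The Control libraries held 2.52, 3.28 and 2.32 RPM and the 2MUT libraries 3.71, 2.64 and 2.48 RPM. The groups overlapped, with a log2 fold change of 0.08 (95% interval -0.43 to 0.59, limma adjusted p = 0.81). The 2-HG(-) libraries held 4.47, 3.21 and 3.66 RPM and the 2-HG(+) libraries 2.45, 3.13 and 2.48 RPM. Here every 2-HG(+) library was below every 2-HG(-) library, but the value of -0.37 (SE 0.16, 95% interval -0.73 to -0.02) did not pass after adjustment (limma adjusted p = 0.102). Nfkb1, which encodes the p105 precursor of p50 and lies at chr3:135584655-135691547, was at 0 to 3 reads in each library of the mutant experiment. Its highest value was 0.439 RPM in 2MUT library 2. This is at the detection limit, and Nfkb1 was not tested. Whether its amplified target was read at all efficiently was not tested either.

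Among the inhibitors, Nfkbia and Tnip1 were on opposite sides of their controls in the 2 experiments, Tnip3 fell in both and Tnfaip3 did not pass the test in either. Nfkbia encodes IκBα, the classical IκB that is itself induced by NF-κB, and lies at chr12:55489410-55492647. In the 2-HG experiment it was 367, 395 and 379 RPM in 2-HG(-) and 246, 247 and 266 RPM in 2-HG(+). The groups were apart by more than their own spread, with a log2 fold change of -0.59 (SE 0.09, 95% interval -0.78 to -0.39, limma adjusted p = 0.000915) and a mean that fell by 33.5%. In the mutant experiment Nfkbia was 195, 242 and 184 RPM in Control and 270, 318 and 234 RPM in 2MUT. The lowest 2MUT library lay below the highest Control library, so the groups overlapped. The log2 fold change was 0.40 (SE 0.13, 95% interval 0.11 to 0.70, limma adjusted p = 0.037). This call was lost without Control library 1 (limma adjusted p = 0.0975), Control library 3 (0.0721), 2MUT library 1 (0.0898) or 2MUT library 2 (0.156), and without the filter on low values (0.0624).

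Tnip1 encodes ABIN-1, a ubiquitin-binding protein that works with A20 to restrain NF-κB signaling, and lies at chr11:54910785-54962917. It was 169, 145 and 159 RPM in 2-HG(-) and 102, 109 and 109 RPM in 2-HG(+). All 2-HG(+) libraries were lower, with a log2 fold change of -0.55 (SE 0.10, 95% interval -0.77 to -0.34, limma adjusted p = 0.0021). In the mutant experiment it was 147, 175 and 161 RPM in Control and 191, 201 and 179 RPM in 2MUT. Every 2MUT library was above every Control library, but the value of 0.24 (SE 0.10, 95% interval 0.02 to 0.47) did not pass (limma adjusted p = 0.0905).

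Tnip3 encodes ABIN-3, a relative of ABIN-1, and lies at chr6:65525313-65634040. Of the members tested, it had the largest decrease in both comparisons. Control libraries held 26.0, 37.5 and 29.9 RPM and 2MUT libraries 9.12, 9.22 and 8.81 RPM. The log2 fold change was -1.66 (SE 0.17, 95% interval -2.03 to -1.29, limma adjusted p = 3.75e-05), and the mean fell by 71.0%. In the 2-HG experiment the values were 6.59, 8.42 and 6.72 RPM in 2-HG(-) and 1.79, 2.23 and 1.83 RPM in 2-HG(+), the last from 27 to 37 reads per library. Again no 2-HG(+) library reached the lowest 2-HG(-) library. The log2 fold change was -1.48 (SE 0.15, 95% interval -1.82 to -1.14, limma adjusted p = 9.88e-05) and the mean fell by 73.1%. At such levels the added 1 RPM makes the log2 fold change smaller than the change of the mean itself.

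Tnfaip3 encodes A20, a ubiquitin-editing enzyme that shuts down signals upstream of the IκB kinase, and lies at chr10:19000910-19015657. It was 28.6, 22.1 and 16.7 RPM in Control and 19.6, 23.9 and 24.5 RPM in 2MUT. It was 33.9, 56.5 and 40.4 RPM in 2-HG(-) and 56.4, 36.5 and 33.7 RPM in 2-HG(+). Groups overlapped in both experiments, and 1 high library stood in each 2-HG group. The log2 fold changes were 0.04 (95% interval -0.38 to 0.46, limma adjusted p = 0.899) and -0.05 (95% interval -0.55 to 0.45, limma adjusted p = 0.878). The spread between libraries was such that a change of up to 0.55 on the log2 scale in the 2-HG comparison lies within the interval.

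Both outputs fell with 2-HG. Il6 encodes the cytokine interleukin 6 and lies at chr5:30013114-30019981. It was 6.32, 7.55 and 4.14 RPM in 2-HG(-), from 69 to 116 reads, and 2.38, 2.71 and 3.40 RPM in 2-HG(+), from 36 to 52 reads. The highest 2-HG(+) library was below the lowest 2-HG(-) library, with a log2 fold change of -0.85 (SE 0.20, 95% interval -1.31 to -0.39, limma adjusted p = 0.011). In the mutant experiment Il6 was at 3 to 5 reads in Control (0.444, 0.712 and 0.547 RPM) and at 7, 1 and 1 reads in 2MUT (1.08, 0.146 and 0.138 RPM). It was below the filter and not tested, and a difference was not detectable at this depth.

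Vcam1 encodes a cell surface adhesion molecule that binds integrins of white blood cells and lies at chr3:116109949-116129688, where it overlaps the antisense gene Gm43109. It was 106, 119 and 133 RPM in Control and 40.6, 48.9 and 49.0 RPM in 2MUT. The groups were far apart, with a log2 fold change of -1.35 (SE 0.13, 95% interval -1.63 to -1.07, limma adjusted p = 2.04e-05) and a mean that fell by 61.3%. With 2-HG it was 204, 172 and 217 RPM in 2-HG(-) and 98.8, 139 and 149 RPM in 2-HG(+). The groups did not overlap, and the value was -0.63 (SE 0.16, 95% interval -0.98 to -0.28, limma adjusted p = 0.0129). Without 2-HG(-) library 3, the highest of the controls, it was -0.56 and did not pass (limma adjusted p = 0.06).

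**Figure D3:**
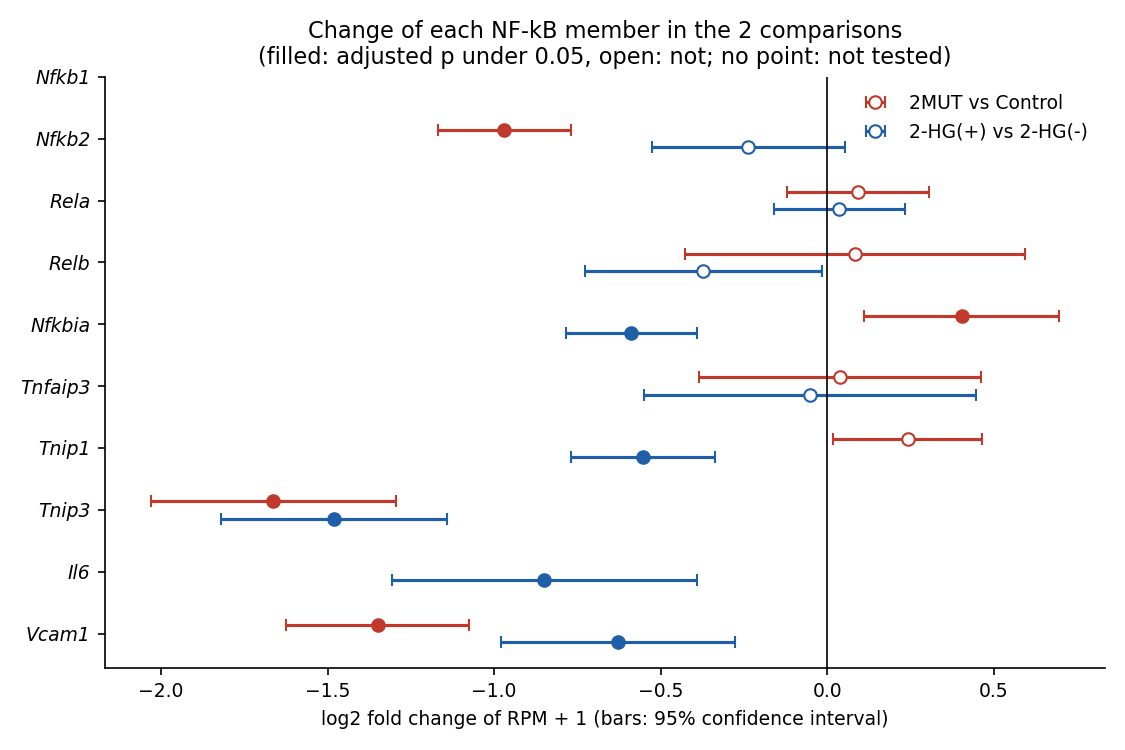
Log2 fold change of RPM + 1 for each NF-κB gene in 2MUT against Control (red) and in 2-HG(+) against 2-HG(-) (blue), with 95% confidence intervals. Filled points passed the limma test, and Nfkbia is filled on opposite sides of 0 whereas Tnip3 and Vcam1 are filled below 0 in both comparisons.

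The changes in the 2 experiments were then tested against each other over the 12 libraries, in which no control library is shared. Of 8 genes tested in both, 4 differed, where 39.4% of all 9612 genes tested did. The change of Nfkbia in 2MUT was 0.99 above its change with 2-HG on the log2 scale (SE 0.17, limma adjusted p = 0.000476), and that of Tnip1 was 0.79 above (SE 0.14, limma adjusted p = 0.000473). In contrast, Nfkb2 was lower in 2MUT by a further -0.73 (SE 0.16, limma adjusted p = 0.00293) and Vcam1 by -0.72 (SE 0.21, limma adjusted p = 0.0164). The difference was -0.18 for Tnip3 (SE 0.22, limma adjusted p = 0.548), 0.06 for Rela (SE 0.13, limma adjusted p = 0.753), 0.46 for Relb (SE 0.26, limma adjusted p = 0.18) and 0.09 for Tnfaip3 (SE 0.33, limma adjusted p = 0.847). None of these last 4 passed, which does not show that their changes were alike.

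The other genes of the pathway were counted from 6 lists that hold 77 genes, all found in the mutant table and 75 of them in the 2-HG table. These lists were drawn up with earlier results of these data known. Their counts beside the shares of all genes, here and below, are therefore a description and not a test of the pathway. In 2MUT, 17 of 62 tested rose and 10 fell, with a median log2 fold change of 0.12. With 2-HG, 4 of 66 tested rose and 22 fell, with a median of -0.28. Over all genes tested, 16.5% rose and 17.3% fell in 2MUT, and 16.1% rose and 16.7% fell with 2-HG. Of 61 tested in both experiments, the change in 2MUT was above that with 2-HG past the threshold in 20 and below it in 6, where 19.9% and 19.5% of all genes tested were.

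The counts by role are small, and each stands against the same shares of all genes. The receptors gave 3 rises and 1 fall among 9 tested in 2MUT, and 1 rise and 3 falls among 9 with 2-HG. Tnfrsf1a, the main TNF receptor, fell in both (-0.47 and -0.31, limma adjusted p = 0.00157 and 0.0414), and Tnfrsf12a, the receptor of the cytokine TWEAK, rose in both (0.37 and 0.74, limma adjusted p = 0.00782 and 0.00412). Among adaptors and proximal kinases, 3 of 16 rose and 1 fell in 2MUT, and 4 of 17 fell with 2-HG. Myd88, the adaptor of Toll-like and interleukin 1 receptors, rose in 2MUT (0.41, limma adjusted p = 0.0282) and fell with 2-HG (-0.84, limma adjusted p = 0.0295). Ticam1, which encodes the adaptor TRIF, fell in both (-1.14 and -0.49, limma adjusted p = 8.95e-05 and 0.0217). Of 7 tested genes of the IκB kinase group, Ikbkg and Tank rose in 2MUT (0.47 and 0.68, limma adjusted p = 0.0368 and 0.00593), and Ikbke fell with 2-HG (-0.78, limma adjusted p = 0.0084).

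Among 10 ubiquitin ligases and deubiquitinases, Sharpin rose (0.43, limma adjusted p = 0.0331) and Rnf31 fell (-0.97, limma adjusted p = 0.00139) in 2MUT. Both encode parts of the linear ubiquitin ligase complex. Birc3, the gene of an inhibitor of apoptosis protein, fell with 2-HG (-0.62, limma adjusted p = 0.0244). Of 5 other Rel and IκB genes tested, 1 rose and 3 fell in 2MUT, and 1 rose and 2 fell with 2-HG. Nfkbiz, the gene of the nuclear protein IκBζ, rose in 2MUT from 238 ± 13.9 to 488 ± 7.69 RPM (SD, n = 3), which is 1.03 on the log2 scale (limma adjusted p = 9.53e-06). With 2-HG its value was -0.33 (limma adjusted p = 0.0731). Nfkbib, the gene of IκBβ, fell in 2MUT and rose with 2-HG (-0.91 and 0.64, limma adjusted p = 0.000655 and 0.0293). Nfkbie, the gene of IκBε, fell in both (-0.87 and -0.78, limma adjusted p = 0.00264 and 0.00285).

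The known target genes had the widest range. In 2MUT, 7 of 15 tested rose and 4 fell (16.5% and 17.3% over all genes), with a median log2 fold change of 0.44. With 2-HG, 2 of 18 rose and 11 fell (16.1% and 16.7% over all genes), with a median of -0.57. The largest rises in 2MUT were those of the neutrophil chemokines Cxcl5 and Cxcl1 and of the immediate early gene Ier3. Cxcl5 was 1052 ± 160 RPM in Control and 3473 ± 320 in 2MUT (SD, n = 3), a log2 fold change of 1.73 (limma adjusted p = 1.98e-06). Cxcl1 was 2528 ± 150 and 8081 ± 995 RPM (SD, n = 3), or 1.67 on the log2 scale (limma adjusted p = 1.09e-06). Ier3 rose by 1.33 in 2MUT and by 1.12 with 2-HG (limma adjusted p = 2.56e-05 and 0.000705). The 3 largest falls in 2MUT over the 6 lists were those of Ticam1, Rnf31 and Gadd45b, a stress response gene (-0.97, limma adjusted p = 3.9e-05).

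With 2-HG, the largest falls were those of Il1rn, Cxcl5 and Lcn2. Il1rn, the gene of the interleukin 1 receptor antagonist, was 408 ± 53.1 RPM in 2-HG(-) and 52.8 ± 9.62 in 2-HG(+) (SD, n = 3), a log2 fold change of -2.93 (limma adjusted p = 1.79e-06). Cxcl5 was 4469 ± 219 and 1202 ± 76.7 RPM (SD, n = 3), or -1.89 on the log2 scale (limma adjusted p = 2.98e-06). Lcn2, which encodes an iron-siderophore binding protein, had a value of -1.47 (limma adjusted p = 6.23e-06). The largest rises were those of the cytokine gene Lif (1.32, limma adjusted p = 0.000345), Ier3 and Tnfrsf12a.

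Of the 61 other pathway genes tested in both experiments, 7 rose in 2MUT and fell with 2-HG, as Nfkbia did, where 4.19% of all 9612 genes tested in both did so. These were Myd88, Sod2, Cxcl1, Cxcl5, Zc3h12a, Lcn2 and Il1rn. A further 6 fell in both, as Tnip3 and Vcam1 did, where 3.07% of all genes did, and these were Tnfrsf1a, Ticam1, Nfkbie, Csf1, Irf1 and Gadd45b. Tnfrsf12a and Ier3 rose in both (1.5% of all genes), Nfkbib alone of the 61 fell in 2MUT and rose with 2-HG (5.18% of all genes), and 26 passed the test in neither (47.1% of all genes). Icam1, the gene of another adhesion molecule, had no read in the 2MUT libraries and a mean of 1.70 RPM in Control, so that it was at least 3.67-fold lower against a detection limit of 0.464 RPM per library. It was below the filter there and was not tested.

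**Figure D4:**
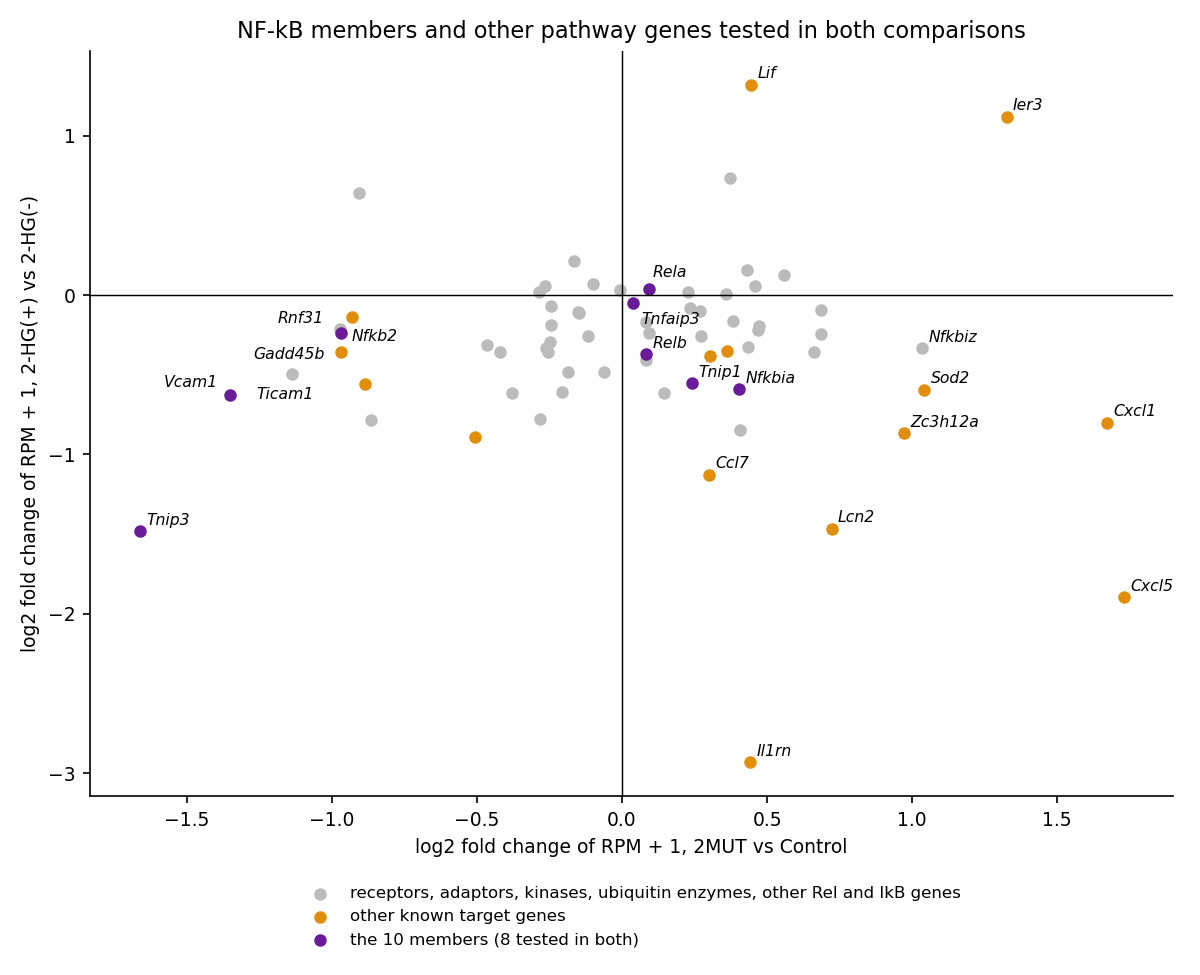
Log2 fold change of RPM + 1 in 2MUT against Control (horizontal) and in 2-HG(+) against 2-HG(-) (vertical) for NF-κB members (purple), other known target genes (orange) and other pathway genes (grey) tested in both. Cxcl5, Cxcl1, Lcn2, Zc3h12a, Sod2 and Il1rn lie at the lower right with Nfkbia, and Tnip3 and Vcam1 lie at the lower left.

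Markers of white blood cells, which also use this pathway, were read beside these results. All 9 markers were found in each table. Their summed level was 20.5 to 24.1 RPM in Control and 43.6 to 54.5 RPM in 2MUT, and 25.7 to 27.1 RPM in 2-HG(-) and 22.1 to 26.9 RPM in 2-HG(+). In 2MUT most of the sum was Cd14, a coreceptor of Toll-like receptor signaling, which was 10.2, 11.8 and 14.6 RPM in Control and 32.4, 43.5 and 39.6 RPM in 2MUT. Lyz2 was also higher in 2MUT, at 0.148, 0.712 and 0.820 RPM in Control and 2.47, 2.64 and 2.75 RPM in 2MUT. Of 3 of these markers tested in 2MUT, Cd14 and Lyz2 rose, although Lyz2 reached the mean of 1 RPM only through the 2MUT libraries, and of 3 tested with 2-HG, Cd68 fell. Csf1r, below the filter, was 0 to 0.570 RPM in Control and 0.688 to 1.70 RPM in 2MUT. Ptprc, Tyrobp and Fcer1g were at 0 in all 2MUT libraries, and Tyrobp and Fcer1g were at 0 in Control as well. Of 11 fibroblast markers tested in each comparison, 8 fell and 2 rose (Fn1 and Fbln2) in 2MUT, and 7 fell and 1 rose (Thy1) with 2-HG. The part of these marker changes in the results for the NF-κB genes was not tested. In bulk RNA, fewer cells that express a gene and less RNA per cell cannot be told apart.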

How the data were processed

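RNA of 12 MEF cell libraries was measured with an Ion AmpliSeq Transcriptome Mouse kit. The authors aligned reads to the AmpliSeq mouse transcriptome reference with TMAP. Per-gene counting was done in the AmpliSeqRNA plug-in, and the authors deposited its RPM values in 1 table for each experiment. The genome build is not given in the sources used here. Groups were taken from the sample labels. RPM values were whole multiples of 1 read for 100% of values (tolerance 0.1 read), from which reads and depth were recovered. Tests used limma 3.58.1 in R 4.3.3 with a mean-variance trend on log2(RPM + 1), for genes whose mean over the 6 compared libraries reached 1 RPM, with Benjamini-Hochberg adjustment over all genes tested and a threshold of 0.05. The members and lists were chosen with earlier results of these data known. Genes named beside the 10 members are list members past the threshold, always with the 3 largest rises and falls of each comparison. Icam1 and the cell type markers were named after their values were seen. Alternatives were 0.1 RPM added, no filter, a filter at 10 RPM, quantile and median-of-ratios scaling, an unmoderated test, edgeR 4.0.16 and DESeq2 1.42.0 on the recovered reads, a block for the replicate number, and leaving out single libraries. The tests were checked on simulated data. Gene positions are from GENCODE M21 on GRCm38 and promoter windows from RefSeq on GRCm38.p6. Quantitative PCR, protein measurements and HCT116 cells were not analysed here.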

Additional observations from a re-analysis of the deposited data

Results flagged for a closer look

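The changes in 2MUT and with 2-HG differed for 4 of the 8 NF-κB genes tested in both experiments, by limma's test of the difference over the 12 libraries, where 39.4% of all 9612 genes tested differed. The change in 2MUT minus the change with 2-HG was 0.99 on the log2 scale for Nfkbia and 0.79 for Tnip1, each with 2MUT above and 2-HG(+) below its control, although the 2MUT value of Tnip1 did not itself pass the test. It was -0.73 for Nfkb2, whose fall passed in 2MUT and not with 2-HG. It was -0.72 for Vcam1, which fell in both. Nfkbia was higher than the Control mean in 3 of 3 2MUT libraries and lower than the 2-HG(-) mean in 3 of 3 2-HG(+) libraries. Its 2MUT and Control libraries nevertheless overlapped, and its call in 2MUT was lost in 6 of 15 alternatives. The experiments differ in vector, depth and length of exposure as well as in the source of 2-HG. They also differ in the genes listed, with 43280 and 23930 entries, and in the control level of some genes. Tnip3 had a mean of 31.2 RPM in Control and 7.25 RPM in 2-HG(-), whereas Rela had 308 and 273 RPM. These differences cannot be told apart.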

How the results depend on the processing

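Of 401 values recomputed under the alternatives, 379 kept their direction and their side of the threshold. Of the 8 genes tested in 2MUT, 1 rose in the reported test and 0 rose with the unmoderated test. With no filter 10 were tested and 0 rose, where 1701 of all 18584 genes tested did. When single libraries were left out, 0 to 1 rose, where 1271 to 1926 of all genes tested did. The unmoderated test also gave 11 other pathway genes higher in 2MUT against 17, 2 higher with 2-HG against 4, 11 lower with 2-HG against 22, and 3 members lower with 2-HG against 5. With a mean of at least 10 RPM, 6 members remained to be tested with 2-HG and 3 were lower, where 1214 of all 7856 genes tested were, since Tnip3 and Il6 were below that level. Under the unmoderated test, Nfkbia in 2MUT (adjusted p = 0.182), Il6 with 2-HG (0.0845) and Vcam1 with 2-HG (0.109) were no longer called. Over all genes this test called 1021 higher and 1223 lower in 2MUT, against 1826 and 1915, and 1098 and 1139 with 2-HG, against 1668 and 1737. The cause of these losses was not tested. Over all its alternatives, the adjusted p of Nfkbia in 2MUT ranged from 0.00562 to 0.182 and that of Vcam1 with 2-HG from 0.000564 to 0.109.

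Direction turned only for values that passed no test. Rela with 2-HG was -0.03 under quantile normalization, and the difference between the changes of Tnip3 was 0.08 with 0.1 RPM added. When single libraries were left out, Relb in 2MUT ranged from -0.05 to 0.19, Tnfaip3 in 2MUT from -0.15 to 0.22, Tnfaip3 with 2-HG from -0.28 to 0.15 and the difference between its changes from -0.11 to 0.31.

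The replicate numbers in the labels gave no sign of pairing, although correlations among 3 libraries per group cannot exclude it. Deviations of same-numbered libraries correlated at 0.0708, 0.0293 and 0.0319 in the mutant experiment and at -0.457, -0.158 and 0.0572 in the 2-HG experiment. Those of differently numbered libraries correlated at -0.138 to 0.0888 and at -0.414 to 0.48, respectively. The highest was that of 2-HG(-) library 2 with 2-HG(+) library 1, so not every library correlated best with its own number. What these libraries share was not tested. With the replicate number as a block, 1 member rose and 3 fell in 2MUT and 5 fell with 2-HG, and over all genes 1911 rose and 1987 fell in 2MUT and 1217 rose and 1286 fell with 2-HG. On the recovered reads, edgeR called 1817 genes higher and 1947 lower in 2MUT and 1794 and 1752 with 2-HG. Few reads limit the precision for Nfkb1, Relb and Il6, which had at most 24 in every library of the mutant experiment, and whether depth or the amplified target sets these low counts was not tested.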
